A study of Homo sapiens with 2 samples.

Results

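The 10 genes described here carry the TGF-β signal from the secreted ligand to the nucleus, and were followed in the transcriptome of MDA-MB-231 cells with knockdown of RBMS1 and in control cells. They were chosen by gene symbol, as the ligands TGFB1 and TGFB2, the receptors TGFBR1 and TGFBR2, the signal transducers SMAD2, SMAD3 and SMAD4, the inhibitors SMAD7 and SKIL, and the induced matrix gene TGFBI. All 10 were found among 49627 genes listed in the data, and all 10 were among the 11186 genes with a mean level of at least 1 FPKM. FPKM counts sequenced fragments relative to transcript length and to the size of the library, so that levels of different genes can be set side by side.

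The MDA-MB-231 line derives from a human triple-negative breast tumor and has a mesenchymal character. RNA of cells depleted of RBMS1, an RNA-binding protein, gave 1 library, and control cells of the same line gave the other. The study made its stable lines with lentiviral shRNA in the pLKO.1 vector under puromycin selection and used the empty vector as control. The time between infection and RNA extraction is not given in the sources used here. With 1 library per group, no test between the groups was possible, and each difference below describes these 2 libraries.

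TGF-β ligands are secreted in a latent form, and once released they bring together a type II and a type I receptor kinase at the cell surface. The type I receptor then phosphorylates SMAD2 and SMAD3, which join SMAD4 and move to the nucleus to bind and regulate target genes. SMAD7 and SKIL are themselves induced by the pathway and hold it back, SMAD7 at the receptor and SKIL at the SMAD complex on DNA. In breast cancer the pathway is known both for restraining growth early and for invasion and immune evasion in advanced tumors, and MDA-MB-231 cells are known to respond to the ligand.

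Transcripts of 3 of the genes differ by a whole exon inside the coding sequence, and the junctions below show which exon joins which, since part of the results turns on these forms. Each line gives 15 nt on either side of a junction, 5′ to 3′ on the strand of the gene, from the GENCODE release 29 transcripts on GRCh38, with the downstream exon in capitals.
TGFBR1-202: aacttccaactactgTAAAGTCATCACCTG
TGFBR1-209: aacttccaactactgGCCCTTTTTCAGTAA
TGFBR1-201: aacttccaactactgGTTTACCATTGCTTG
TGFBR2-202: acgttcagaagtcggATGTGGAAATGGAGG
TGFBR2-201: acgttcagaagtcggTTAATAACGACATGA
SMAD2-203: tgttaccataccaagCACTTGCTCTGAAAT
SMAD2-205: tgttaccataccaagGTCTCTTGATGGTCG
In TGFBR1 the exon at chr9:99132509-99132739 (231 nt, 77 codons) is present in TGFBR1-202 and skipped in TGFBR1-201, and TGFBR1-209 carries the same exon with 12 nt more at its start. In TGFBR2 the exon at chr3:30623199-30623273 (75 nt, 25 codons) is present in TGFBR2-202 only, the form known as TGFBR2-B with an insertion in the extracellular part. In SMAD2, on the minus strand, the exon at chr18:47870475-47870564 (90 nt, 30 codons) is present in SMAD2-203 and SMAD2-201 and skipped in SMAD2-205 and SMAD2-202. SMAD2 with this exon is known not to bind DNA directly, whereas the form without it can.

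The target of the knockdown was looked at first. RBMS1 was listed at 3.76 FPKM in the knockdown library and 24.1 FPKM in the control library, a log2 ratio of −2.40 with 1 FPKM added to both values, so the targeted gene followed the labels. Most markers of the cell line followed the label in both libraries, with VIM between 496 and 563 FPKM, AXL between 229 and 251 FPKM, and CDH1, ESR1 and PGR below 0.1 FPKM. CD44, a mesenchymal marker, was listed at 154 and 204 FPKM in the knockdown and the control library. ERBB2, which was taken as low in a triple-negative line, was listed at 7.50 and 7.0 FPKM and so was not absent, and of the epithelial markers KRT18 was high, at 162 and 190 FPKM, and EPCAM was listed at 1.93 and 3.66 FPKM. All 3 fibroblast markers (COL3A1, LUM, PDGFRB) and all 3 leukocyte markers (PTPRC, CD3E, CD14) stayed below 1 FPKM in both libraries, with CD3E listed at 0.

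Across the 10 genes, TGFBI alone differed by at least 2-fold, and it was lower in the knockdown library, with a log2 ratio of −1.33 that became −0.996, just short of 2-fold, with 5 FPKM added in place of 1. In bulk RNA, less RNA per cell and fewer cells with that RNA cannot be told apart. This is 1 of 10, where 5.76% of all 11186 genes differed by at least 2-fold, 2.80% lower and 2.96% higher. In all, 5 of the 10 genes had a log2 ratio below 0, as had 47.2% of all genes, and their median log2 ratio was −0.14 beside 0.02 over all genes. A second count used the confidence interval that Cufflinks writes for each transcript, summed over the transcripts of a gene, which covers the estimate within 1 library and not the spread between cultures. By that count 6 of the 10 genes had intervals that did not overlap between the libraries, 4 lower (TGFBI, TGFBR2, TGFB1 and SMAD3) and 2 higher (TGFBR1 and TGFB2), where 24.7% of the 11181 genes with a usable interval did so, 11.4% lower and 13.3% higher. TGFBR2 left that count with reference transcripts alone, SKIL joined it as lower under all 3 scalings, with reference transcripts alone and with protein-coding ones, and the count of lower genes ranged from 3 to 5. With only the reference transcript of highest mean level, TGFBR1 and TGFBR2 both left that count. SMAD7 joined it as higher when assembled transcripts were given by exon overlap, and the count of higher genes ranged from 1 to 3. Among the 7154 genes whose mean level lay between those of SMAD7 and TGFB2, the lowest and highest of the 10, the shares were 23.9% for intervals apart and 4.58% for a 2-fold difference.

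**Figure D1:**
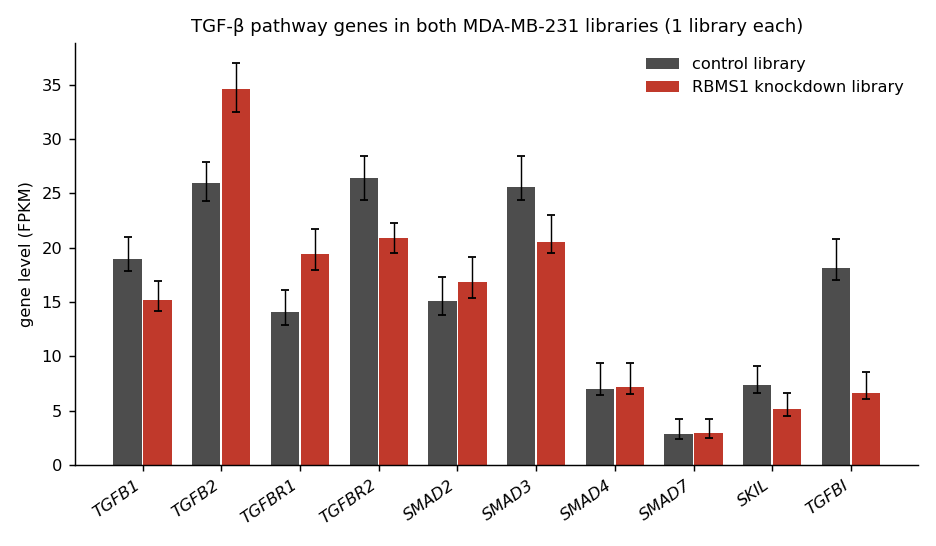
Level of each of the 10 genes in FPKM (vertical axis, linear and from 0) in the control library (grey) and the RBMS1 knockdown library (red), 1 library each. The error bars are the summed within-library Cufflinks intervals, and TGFBI shows the widest gap, 6.59 against 18.1 FPKM.

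The 2 ligands went in opposite directions. TGFB1 (ENSG00000105329, chr19:41301587-41353911, minus strand), the ligand best known from platelets and immune cells, was listed at 15.1 FPKM (interval 14.2 to 16.9) in the knockdown library and 18.99 FPKM (17.8 to 21.0) in the control library. The knockdown library was lower by 0.31 on the log2 scale (a log2 ratio of −0.31), and the intervals did not overlap. TGFB1-201 was the transcript that carried all of this level in both libraries, out of 4 annotated, with 390 codons.

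TGFB2 (ENSG00000092969, chr1:218346235-218444619, plus strand), the ligand known to need the co-receptor betaglycan for high affinity binding, was listed at 34.6 FPKM (32.5 to 37.0) in the knockdown library and 25.9 FPKM (24.3 to 27.9) in the control library. The knockdown library was higher, with a log2 ratio of 0.40 and intervals apart. The reference transcript TGFB2-202 stood at 18.8 FPKM (17.8 to 19.8) in the knockdown library and 16.2 FPKM (15.2 to 17.1) in the control library. The rest came from 1 transcript per library that Cufflinks assembled from the reads, 15.9 FPKM in the knockdown library and 9.78 FPKM in the control library. That transcript begins 1102 nt (knockdown) or 1898 nt (control) before the annotated start of TGFB2-202 and ends 58 or 71 nt before the end of the stop codon, so as assembled it holds an incomplete coding sequence. With the reference transcript alone, the log2 ratio was 0.20. The 3′ part of TGFB2 shares 1371 nt of exon with TGFB2-OT1 on the same strand, which was listed at 0 in both libraries.

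The receptors also went in opposite directions. TGFBR1 (ENSG00000106799, chr9:99104038-99154192, plus strand), the type I receptor that phosphorylates the SMADs, was listed at 19.4 FPKM (17.9 to 21.7) in the knockdown library and 14.1 FPKM (12.8 to 16.1) in the control library. The log2 ratio of 0.44 was the highest of the 10 genes, and the intervals were apart. Its rank among all 11186 genes was 1184 from the top.

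The transcripts of TGFBR1 did not share that direction. TGFBR1-201, which skips the exon shown above and holds 426 codons, stood at 5.01 FPKM (4.56 to 5.47) in the knockdown library and 2.08 FPKM (1.78 to 2.38) in the control library. TGFBR1-202, with the exon and 503 codons, stood at 7.14 FPKM (6.64 to 7.64) and 3.76 FPKM (3.41 to 4.11). TGFBR1-209, with the longer exon and 507 codons, went the other way, at 7.26 FPKM (6.71 to 7.80) in the knockdown library and 8.23 FPKM (7.65 to 8.80) in the control library, with intervals that overlapped. The share of the gene without the exon was therefore 25.8% in the knockdown library against 14.8% in the control library. Taken alone, TGFBR1-209, the transcript with the highest mean level, gives a log2 ratio of −0.16, the reverse of the sign of the whole gene. These 3 transcripts share most of their sequence, and their levels are Cufflinks' division of shared fragments, without counts of fragments across each junction.

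TGFBR2 (ENSG00000163513, chr3:30606502-30694142, plus strand), the type II receptor that binds the ligand first, was listed at 20.9 FPKM (19.5 to 22.3) in the knockdown library and 26.4 FPKM (24.4 to 28.4) in the control library. The log2 ratio was −0.33, with intervals apart. Both reference forms were nearly level between the libraries. TGFBR2-201 (567 codons) stood at 16.3 FPKM (15.4 to 17.2) in the knockdown library and 17.7 FPKM (16.7 to 18.8) in the control library, and TGFBR2-202 (592 codons) at 4.55 FPKM (4.09 to 5.01) and 4.78 FPKM (4.30 to 5.26). The rest of the difference was 1 assembled transcript of 5 exons listed in the control library alone, at 3.93 FPKM, which begins inside the gene at chr3:30654697. With the reference transcripts alone the log2 ratio was −0.10 and the intervals overlapped, at 19.5 to 22.3 FPKM in the knockdown library and 20.98 to 24.0 FPKM in the control library.

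Of the transducers, SMAD3 was lower in the knockdown library, while SMAD2 and SMAD4 had intervals that overlapped between the libraries. SMAD3 (ENSG00000166949, chr15:67063763-67195195, plus strand), a transducer that binds DNA, was listed at 20.6 FPKM (19.6 to 23.1) in the knockdown library and 25.6 FPKM (24.4 to 28.4) in the control library. The log2 ratio was −0.30. Its whole level lay in SMAD3-201 (425 codons), out of 15 annotated transcripts.

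SMAD2 (ENSG00000175387, chr18:47808957-47931146, minus strand), the other receptor-regulated SMAD, was listed at 16.8 FPKM (15.4 to 19.1) in the knockdown library and 15.1 FPKM (13.8 to 17.3) in the control library. The log2 ratio was 0.15. Most of the level in both libraries was given to the forms that skip the exon shown above, 91.0% in the knockdown library against 96.0% in the control library. Among them, SMAD2-205 (437 codons) stood at 11.3 and 9.98 FPKM and SMAD2-202 (437 codons, with a longer 3′ UTR) at 3.97 and 4.52 FPKM. The forms with the exon (467 codons) summed to 1.51 FPKM (1.34 to 1.67) in the knockdown library and 0.598 FPKM (0.546 to 0.650) in the control library. In the knockdown library SMAD2-203 made up 1.08 FPKM of this sum, and in the control library it was listed at 0. The coding sequences of these forms are shared apart from the exon while their 3′ UTRs differ in length, from 602 nt in SMAD2-205 to 32870 nt in SMAD2-201, and each share is Cufflinks' division of the fragments.

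SMAD4 (ENSG00000141646, chr18:51028394-51085045, plus strand), the common partner of all receptor-regulated SMADs, was listed at 7.15 FPKM (6.55 to 9.39) in the knockdown library and 7.0 FPKM (6.40 to 9.39) in the control library. The log2 ratio was 0.03, and just below 0 under 2 of the 3 scalings. The coding transcript SMAD4-201 (552 codons) stood at 4.09 FPKM (3.81 to 4.38) and 4.43 FPKM (4.13 to 4.74). A transcript annotated as a retained intron, SMAD4-212, made up the rest, 42.7% of the gene in the knockdown library against 36.7% in the control library. SMAD4 shares 905 nt of exon with AC091551.1 on the same strand, which was listed at 0 in both libraries.

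Of the inhibitors, SKIL was lower in the knockdown library and SMAD7 had nearly the same level in both. SKIL (ENSG00000136603, chr3:170357678-170396835, plus strand), also known as SnoN, a repressor that binds the SMAD complex, was listed at 5.15 FPKM (4.46 to 6.66) in the knockdown library and 7.40 FPKM (6.60 to 9.08) in the control library. The log2 ratio was −0.45, the second lowest of the 10 genes, and the intervals overlapped by a small margin, which was lost under all 3 scalings. SKIL-201 and SKIL-204 both hold 684 codons and differ in the 3′ UTR, 331 nt in SKIL-201 and 4418 nt in SKIL-204. The short form SKIL-201 stood at 2.57 FPKM (2.20 to 2.93) in the knockdown library and 3.34 FPKM (2.86 to 3.82) in the control library. SKIL-204 stood at 1.70 FPKM (1.5 to 1.9) in the knockdown library and 4.06 FPKM (3.74 to 4.38) in the control library. An assembled transcript that also reaches the end of the long 3′ UTR was listed in the knockdown library alone, at 0.885 FPKM. With it, the forms with the long 3′ UTR summed to 2.58 FPKM (2.25 to 2.92) in the knockdown library, still below the interval of the control library, and their share of the gene was 50.2% against 54.9%.

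SMAD7 (ENSG00000101665, chr18:48919853-48952052, minus strand), which recruits ubiquitin ligases to the receptors, was the lowest of the 10 genes in both libraries. It was listed at 2.93 FPKM (2.45 to 4.26) in the knockdown library and 2.86 FPKM (2.41 to 4.24) in the control library, a log2 ratio of 0.02. SMAD7-201 stood at 1.18 FPKM (0.939 to 1.41) in the knockdown library and 0.740 FPKM (0.540 to 0.940) in the control library, intervals that overlap at their ends. The files hold SMAD7-201 with 3087 nt, where GENCODE release 29 gives it 4428 nt. An assembled transcript with the same number of exons (4), of 4392 nt in the knockdown library and 4432 nt in the control library and so close to the annotated length, stood at 1.75 FPKM (1.52 to 1.98) and 2.12 FPKM (1.87 to 2.37). Their sum is the level of the gene. The value of this gene depends on which assembled transcripts are counted, since 3 assembled transcripts of 1 exon each lie over its exons in the knockdown library and none in the control library. Counting them gives a log2 ratio of 1.02.

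TGFBI (ENSG00000120708, chr5:136028895-136063818, plus strand), which codes for a secreted matrix protein and is named for its induction by TGF-β, was listed at 6.59 FPKM (6.03 to 8.60) in the knockdown library and 18.1 FPKM (17.0 to 20.8) in the control library. The intervals were far apart, the level in the knockdown library was 36.4% of that in the control library, and the log2 ratio of −1.33 ranked 228 from the lowest among 11186 genes. The intervals allow a log2 ratio from −1.63 to −0.91. TGFBI-201, with 683 codons and 17 exons, was given the whole level in both libraries out of 15 annotated transcripts, and the upper bounds of the others enter the interval of the gene.

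**Figure D2:**
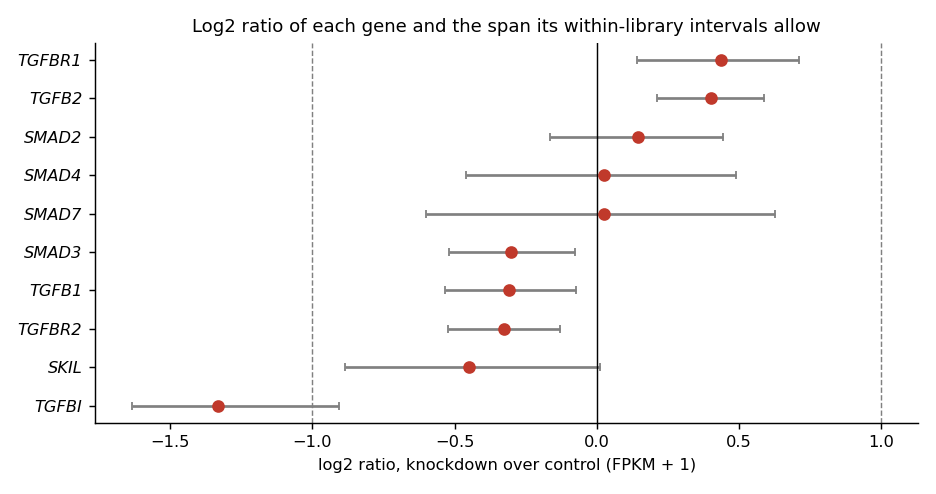
Log2 ratio of knockdown over control with 1 FPKM added (horizontal axis) for each of the 10 genes, from the highest at the top (TGFBR1, 0.44) to the lowest (TGFBI, −1.33). Grey bars span the ratios that the within-library intervals allow, dashed lines mark a 2-fold difference, and the bars of SMAD2, SMAD4, SMAD7 and SKIL cross 0.

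TGFBR2, TGFB2 and SMAD3 were the 3 highest genes of the 10 in the control library and SMAD7 the lowest, and TGFB2, TGFBR2 and SMAD3 were highest and SMAD7 lowest in the knockdown library too. With the uncounted assembled transcripts over its exons, SMAD7 would be at 6.83 FPKM in the knockdown library, above TGFBI and SKIL. In the control library each of the 3 overlapped the next within its interval, followed after a gap by TGFB1, TGFBI, SMAD2 and TGFBR1, where neighbours again overlapped. SKIL and SMAD4 overlapped each other below that group, and SMAD7 stood apart as the lowest. In the knockdown library TGFB2 stood apart as the highest, followed by TGFBR2, SMAD3, TGFBR1, SMAD2 and TGFB1, whose neighbours overlapped. With the reference transcript TGFB2-202 alone, TGFB2 would be at 18.8 FPKM in the knockdown library, below TGFBR2, SMAD3 and TGFBR1. In the control library TGFB2-202 alone would be at 16.2 FPKM, below SMAD3, TGFBR2, TGFB1 and TGFBI. TGFBI was number 5 in the control library and number 8 in the knockdown library, where it lay between SMAD4 and SKIL and overlapped both. In the control library the levels of TGFBR2 and TGFB2 were at the 82nd percentile of all 11186 genes, and that of SMAD7 was at the 21st.

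RBMS1 belongs to a family of proteins known to bind AU-rich RNA, with AUAUA as a recognition motif, and the study treats it as a regulator of mRNA. The 3′ UTR of the reference transcript with the highest mean level was searched for ATATA in its own sense, with overlapping matches counted. The motif was found in 8 of the 10 genes, in all but TGFB1 and TGFBI, beside 57.0% of the 9390 genes that have an annotated 3′ UTR. Long 3′ UTRs hold it more often. Among genes with a 3′ UTR within 20% of the length, the share with the motif was 91.3% for TGFB2, 96.2% for TGFBR1, 86.8% for TGFBR2, 97.0% for SMAD3, 98.2% for SMAD4 and 72.5% for SMAD7, and it was 41.7% for SMAD2-205 and 28.9% for SKIL-201, whose 3′ UTRs are short. The longer motif ATATAT, which contains it, was found in 7 of the 10 and in 39.4% of those genes. The median number of ATATA per kb was 1.5 in the 10 genes and 0.743 over all genes.

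TGFBR2-201 held 14 matches in 2535 nt, where genes with a 3′ UTR within 20% of that length had a median of 4. SMAD2-205 held 5 in 602 nt, where such genes had a median of 0, and SMAD7-201 held 5 in 1519 nt beside a median of 2. By contrast, SMAD3-201 with 4 in 4659 nt and SMAD4-201 with 5 in 6572 nt lay below genes of similar length, whose medians were 7 and 11. TGFBR1-209 held 5 beside a median of 6, TGFB2-202 held 6 beside a median of 5, and SKIL-201 held 1 beside a median of 0. For TGFBI, with none in 591 nt, 41.5% of the genes of similar length held at least 1 match, and for TGFB1, with none in 729 nt, 47.7% did. In SKIL, 1 match lies in the stretch that SKIL-201 and SKIL-204 share and 14 lie beyond the end of SKIL-201. The lines below show the 30 nt richest in the motif for the genes with the most matches per length, in SKIL beyond the end of SKIL-201, 5′ to 3′ on the gene's strand, with the matches in capitals.
TGFBR2-201: gttttATATATATATATATATAtctATATA
SKIL-204: catatttaATATAttaccagttaagATATA
SMAD2-205: ttgtgtgtcttttttaATATATAATATATA
SMAD7-201: tATATAaATATAttattacttgtaaATATA
These lie at chr3:30691906-30691935 in TGFBR2, at chr3:170395403-170395432 in SKIL, at chr18:47841335-47841364 in SMAD2 and at chr18:48920077-48920106 in SMAD7, all in the 3′ UTR on GRCh38. The 8 genes that hold the motif had log2 ratios of both signs. TGFB2, TGFBR1, SMAD2, SMAD7 and, by a margin that 2 of the 3 scalings remove, SMAD4 were above 0. TGFBR2, SMAD3 and SKIL were below 0. For TGFBR1 and SMAD4 the transcript that was searched lay below 0, TGFBR1-209 at −0.16 and SMAD4-201 at −0.093. TGFBI, the gene with the lowest ratio, does not hold the motif. A match is a stretch of letters and not a measured site of binding.

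The other genes of the pathway were described from 6 lists of 87 genes in all, of which 60 had a mean level of at least 1 FPKM. Of these 60 genes, 5 were at least 2-fold lower and 3 at least 2-fold higher in the knockdown library, and their median log2 ratio was 0.08. Over all 11186 genes 2.80% were lower and 2.96% higher by that rule, with a median of 0.02. The list of target genes held 4 of these 8 genes and the lowest median of the lists with more than 2 counted genes.

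Among the target genes, 19 of 25 were counted, with a median log2 ratio of −0.22, and 3 were at least 2-fold lower and 1 higher. Of the 19, 10 had a log2 ratio below 0 and 9 above 0, where 47.2% of all genes were below 0. The median is the value of ID3, whose intervals overlapped and whose ratio ranged from −0.32 to 0.36 over the alternatives. IL11, a cytokine known to be induced by TGF-β in bone metastatic breast cancer cells, was listed at 5.18 FPKM (4.21 to 6.33) in the knockdown library and 20.4 FPKM (18.3 to 22.8) in the control library, a log2 ratio of −1.79. PMEPA1, a target that itself dampens the pathway, was listed at 2.29 and 7.81 FPKM (log2 ratio −1.42). Both genes, which were named because they passed 2-fold, were lower in the knockdown library, as TGFBI was, with intervals apart in each. ANGPTL4, a secreted regulator of lipoprotein lipase, was listed at 0 in the knockdown library, with an upper bound of 0.921 FPKM, and at 11.5 FPKM in the control library. TAGLN, a cytoskeletal protein of contractile cells, went the other way, at 12.0 FPKM in the knockdown library and listed at 0 in the control library, with an upper bound of 0.849 FPKM. Of the 19 genes, 8 had intervals apart in the lower and 6 in the higher direction, where 11.4% and 13.3% of all genes did. With 5 FPKM added PMEPA1 had a ratio of −0.81 and was no longer past 2-fold. With only its reference transcript of highest mean level the ratio of PMEPA1 was −2.43.

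Of the 11 other ligands, 3 were counted. BMP4, a ligand of the bone morphogenetic branch that signals through other SMADs, was listed at 44.4 FPKM (40.4 to 49.2) in the knockdown library and 18.2 FPKM (16.3 to 21.1) in the control library, with a log2 ratio of 1.24, or 0.95 and no longer past 2-fold with reference transcripts alone. The other ligands counted, GDF11 and GDF15, had log2 ratios of 0.19 with overlapping intervals, and TGFB3, the remaining TGF-β isoform, lay below 1 FPKM on average.

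Of the 15 genes of latency and activation, 9 were counted, with a median of 0.13. THBS1, thrombospondin 1, a matrix protein known to activate latent TGF-β, was listed at 178 FPKM (170 to 187) in the knockdown library and 503 FPKM (482 to 526) in the control library, a log2 ratio of −1.49. That value rests on assembled transcripts, and with the reference transcripts alone the ratio was reversed at 6.37. NRROS, which tethers latent TGF-β on myeloid cells, was listed at 2.38 FPKM in the knockdown library against 0 FPKM in the control library.

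Of the 13 other receptors and co-receptors, 8 were counted, with a median of 0.08. ACVR2A, a type II receptor for activins, was listed at 0 in the knockdown library against 2.64 FPKM in the control library, and was the gene of this list past 2-fold. Of the 4 other SMADs, 2 were counted and neither passed 2-fold. SMAD1, a transducer of the BMP branch, had a log2 ratio of 0.03, and SMAD5, of the same branch, was listed at 11.1 FPKM in the knockdown library and 13.1 FPKM in the control library (log2 ratio −0.22), with no usable interval in the control library. With reference transcripts alone SMAD5 turned to a log2 ratio of 2.65.

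All 19 SMAD partners and regulators were counted, with a median of 0.08 and none past 2-fold. With reference transcripts alone 5 passed it, RNF111 at −2.28 and USP15 at −1.09, and TRIM33 at 2.41, USP9X at 1.67 and PPM1A at 1.11, genes named after these values were seen. With assembled transcripts included, the lowest was NEDD4L, a ubiquitin ligase for phosphorylated SMADs, at 38.4 FPKM (35.7 to 48.2) in the knockdown library and 68.8 FPKM (64.7 to 80.3) in the control library (log2 ratio −0.83). The highest was PPM1A, a phosphatase known to act on SMAD2 and SMAD3, at 21.6 FPKM (19.2 to 24.5) and 11.4 FPKM (10.5 to 12.9), with a log2 ratio of 0.86. The ratio of PPM1A was 0.28 without its non-coding transcripts and 3.08 with the dominant reference transcript. In this list 3 of 19 genes had intervals apart in the lower and 4 in the higher direction, beside the same 11.4% and 13.3% of all genes.

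**Figure D3:**
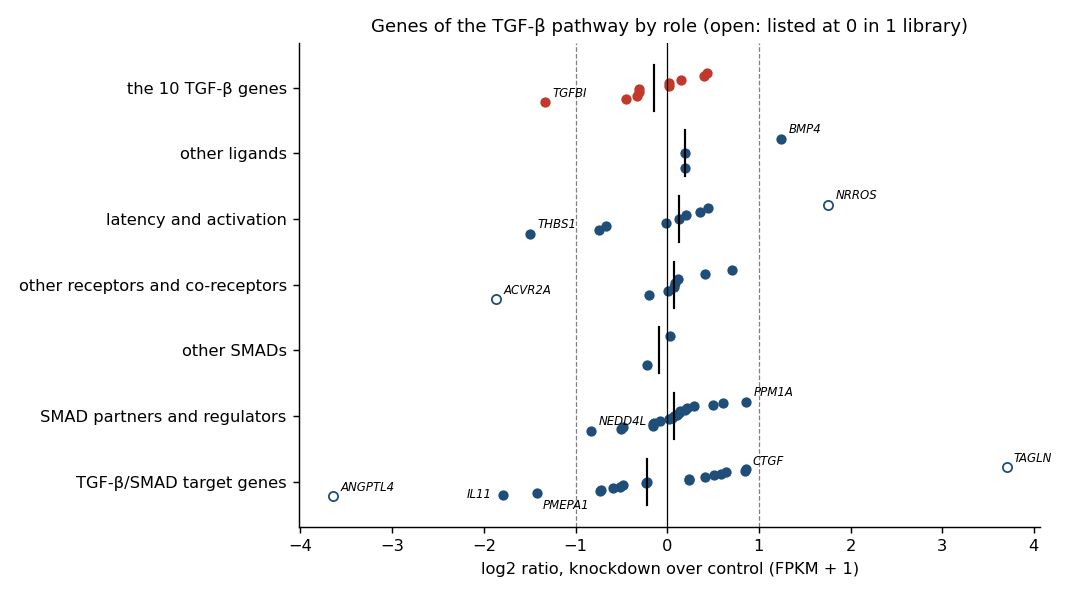
Log2 ratio of knockdown over control with 1 FPKM added (horizontal axis) for the 10 TGF-β genes (red) and the counted genes of the 6 pathway lists (blue), 1 point per gene. Black ticks are list medians, dashed lines mark a 2-fold difference, open points are listed at 0 in 1 library, and the target genes reach from ANGPTL4 to TAGLN around a median of −0.22.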

How the data were processed

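The authors deposited, for each library, the transcripts and FPKM that Cufflinks wrote, with an interval and a coverage per transcript. The submitters' processing notes name Bowtie2 2.0.6, TopHat2 2.0.9, Cufflinks 2.1.1 and Cuffdiff 2.1.1. The build and annotation are not given in the sources used here, and 98.1% of the matched reference transcripts started at the GENCODE release 29 position on GRCh38. The authors' table of fold changes and p-values was not used. Read counts were not part of the files, so the depth is unknown. The median coverage per FPKM was 12.3 in the knockdown and 11.3 in the control library.

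Gene levels were summed from the FPKM of reference transcripts and of assembled transcripts sharing at least 1 intron on the same strand (6507 in the knockdown and 6583 in the control library). Transcripts given to no gene held 70.9% and 71.9% of the summed FPKM of all transcripts. The upper bound of a gene also sums the bounds of its transcripts at 0. Ratios were log2 with 1 FPKM added, which understates the change of low genes, and genes with a mean of at least 1 FPKM were counted. Whether the libraries keep strand is not given in the sources used here. Named were all 10 genes, RBMS1, and, per list, the genes past 2-fold or else the lowest and highest; GDF11, GDF15 and TGFB3 and the genes under other observations were named after their values were seen. The genes and lists were chosen with earlier results of these data known. A target gene is not reported here and was left out of its list and counts. The alternatives were 0.1 or 5 FPKM added, 3 scalings, 4 choices of transcripts, no filter or a mean of at least 5 FPKM, and a longer motif. The functions were tested on simulated data. Python 3.11.15 with pandas 2.3.3, numpy 2.4.6 and matplotlib 3.10.9 was used.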

Additional observations from a re-analysis of the deposited data

Results flagged for a closer look

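SMAD7 had a signal in transcripts that enter none of the main comparisons and are counted only in the alternative by exon overlap. In the knockdown library, 3 assembled transcripts of 1 exon, each between 1.2 and 1.37 FPKM and between 2667 and 7685 nt long, lay over its exons between chr18:48933353 and chr18:48952019. They summed to 3.90 FPKM, where the SMAD7 level of that library was 2.93 FPKM, and the control library listed none. They were left out because they share no intron with SMAD7, and their origin was not tested. The other 9 genes had no such transcripts in either library.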

How the results depend on the processing

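No paired analysis was possible because each group holds 1 library. Read counts were not used here, and the intervals cover the estimate within a library only. TGFB1, SMAD2, SMAD3 and SKIL kept their direction and moved by less than their intervals under all 9 alternatives. SMAD4 stayed within its intervals but ranged from −0.093 to 0.03. TGFBI ranged from −1.45 to −0.996. With 5 FPKM added it fell just short of 2-fold, so that 0 of the 10 genes were at least 2-fold lower, and RBMS1 stood at −1.73. With reference transcripts only, TGFB2 was 0.20 and TGFBR2 −0.10. With the dominant reference transcript only, TGFB2 was 0.20, TGFBR1 was reversed at −0.16, TGFBR2 was −0.11, and 1 gene was higher with intervals apart. With assembled transcripts given by exon overlap, SMAD7 was 1.02 and was then the 1 gene at least 2-fold higher.

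In the lists, counts past 2-fold moved by 1.5 times or more as follows. With reference transcripts only, other ligands had 0 higher, latency and activation 0 lower and 2 higher, other SMADs 1 higher, and regulators 2 lower and 3 higher. With the dominant transcript only, latency and activation had 0 lower and 2 higher, other SMADs 1 higher, and regulators 1 lower and 3 higher. With protein-coding transcripts, latency and activation had 2 lower. With 5 FPKM added, and likewise with a mean of at least 5 FPKM, latency and activation had 0 higher and other receptors 0 lower. Target genes had 2 in place of 3 lower with 5 FPKM added, without PMEPA1. THBS1 was reversed at 6.37 in both of these reference settings. The 4 genes listed at 0 in a library moved with the FPKM added, as TAGLN did between 1.77 and 6.92. The causes were not tested.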

Other observations

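Some further genes of the lists had intervals apart without a 2-fold difference, and they are given here because of their values. TGFBR3, the co-receptor betaglycan that presents TGF-β2 to the receptors, was listed at 5.25 FPKM in the knockdown library and 2.82 FPKM in the control library (log2 ratio 0.71). FURIN, the protease that cleaves the ligand precursors, was listed at 15.4 and 11.8 FPKM (0.36), and ITGAV, the integrin chain of the main activators of latent TGF-β, at 12.8 and 20.9 FPKM (−0.66). Both SMURF ligases, which SMAD7 brings to the receptors, were lower in the knockdown library, SMURF1 at 7.55 against 10.98 FPKM and SMURF2 at 55.8 against 79.7 FPKM. USP15, a deubiquitinase of the type I receptor, was listed at 12.4 and 7.73 FPKM (0.61), but its ratio reached −1.09 under another choice of transcripts.

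Several target genes lay on the other side of 0 from IL11 and TGFBI. FN1, fibronectin, was listed at 31.3 FPKM in the knockdown library and 19.7 FPKM in the control library, with a log2 ratio of 0.64. CTGF, a matricellular protein, was listed at 77.7 and 42.7 FPKM (0.85), a ratio of 0.21 when assembled transcripts were given by exon overlap. ID1, an inhibitor of differentiation, was listed at 63.7 and 42.0 FPKM (0.59), while ID3, of the same family, was listed at 19.02 and 22.3 FPKM (−0.22) with overlapping intervals and a range from −0.32 to 0.36 over the alternatives. CDKN1A, the cell cycle inhibitor p21, was lower in the knockdown library, at 19.1 and 32.4 FPKM (−0.74).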
